A study of Mus musculus with 3 samples.

Results

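A set of 752 HDAC3 binding sites in embryonic mouse epidermis was defined as strong, away from protein-coding gene ends and free of an overlapping KLF4 peak. A site belonged when its HDAC3 height reached 12 normalised tags (tags scaled to a library of 10000000), when its centre lay more than 1 kb from every end of a protein-coding gene (GRCm38), and when no KLF4 peak centre lay closer than the width of 1 peak. They were 752 of 57936 HDAC3 peaks in all, and 752 of the 5991 peaks of that height on the chromosomes. A further 2 peaks of that height without KLF4 lay on unplaced sequences and were not counted. The study precipitated chromatin of fixed dorsal epidermis from wild-type embryos at E18.5 with an antibody against HDAC3 (Abcam ab7030) in 1 library and against KLF4 (R&D AF3158) in another, and kept 1 library of input DNA without antibody. No treatment or transgene was involved, and the labels do not say how many embryos were pooled. Each precipitation was done in a single library, so no value has a replicate check. Every test counts peaks of 1 library and covers only the counting error of peaks taken as independent. Close peaks can share neighbours or count each other, so intervals can be too narrow and p-values too small.

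HDAC3 removes acetyl groups from histones and does not bind DNA by itself. It is carried to chromatin by transcription factors and nuclear receptors through corepressor complexes, and it sits at many distal regulatory elements. KLF4 is a zinc finger factor of the suprabasal epidermis that is required for the skin barrier, and most strong HDAC3 peaks of this tissue overlapped a KLF4 peak, namely 85.3% of the 5991 (95% exact interval 84.4 to 86.2). The peaks described here are the distal part of the remainder.

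Some of these sites lay at the start of a transcript in spite of the distance rule, because the rule used only the outermost ends of protein-coding genes. Of the 752 peaks, 25 (3.32%) overlapped a RefSeq window running from 250 bases before to 50 bases after an annotated transcript start. The windows covered 27025 genes, against 49943 genes used for distances, so further peaks can lie at starts without a window. The starts belonged to 11 protein-coding genes, all of them internal starts, and to 14 lncRNA genes. The parts of 6 such windows that an HDAC3 peak covered are printed 5′ to 3′ (RefSeq, GRCm38.p6), to show sites with different elements and 1 site with none. They were chosen by their matches: of all 25 covered parts 11 held a match to the motifs marked here and 14 held none. Capitals mark matches to the AP-1 motif TGANTCA, the ETS motif CCGGAAG, the C/EBP motif TTGCNNAA or the E-box CACGTG on either strand.
Rab17, chr1:90967618-90967798, minus strand: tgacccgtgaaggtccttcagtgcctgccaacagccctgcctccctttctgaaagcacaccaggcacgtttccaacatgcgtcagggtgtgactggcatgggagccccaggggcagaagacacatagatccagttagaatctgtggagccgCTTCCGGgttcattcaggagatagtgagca
Cln3, chr7:126583317-126583486, minus strand: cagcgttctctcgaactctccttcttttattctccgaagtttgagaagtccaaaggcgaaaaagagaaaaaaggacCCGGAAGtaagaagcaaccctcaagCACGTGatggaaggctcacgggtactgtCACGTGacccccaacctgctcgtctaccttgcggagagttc
Creb5, chr6:53573216-53573400, plus strand: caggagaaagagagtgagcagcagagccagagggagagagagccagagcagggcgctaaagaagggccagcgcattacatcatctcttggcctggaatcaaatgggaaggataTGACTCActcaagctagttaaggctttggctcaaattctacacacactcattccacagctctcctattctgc
Egfros, chr11:16830679-16830863, minus strand: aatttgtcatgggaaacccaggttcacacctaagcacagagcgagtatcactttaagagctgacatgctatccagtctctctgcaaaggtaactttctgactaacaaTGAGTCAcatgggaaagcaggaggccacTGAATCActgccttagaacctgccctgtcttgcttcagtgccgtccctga
Bmf, chr2:118544647-118544831, minus strand: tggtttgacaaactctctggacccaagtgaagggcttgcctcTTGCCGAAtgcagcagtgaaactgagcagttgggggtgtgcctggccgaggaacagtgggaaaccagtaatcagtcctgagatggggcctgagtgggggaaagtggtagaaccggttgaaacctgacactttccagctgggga
Snhg7, chr2:26640208-26640392, minus strand: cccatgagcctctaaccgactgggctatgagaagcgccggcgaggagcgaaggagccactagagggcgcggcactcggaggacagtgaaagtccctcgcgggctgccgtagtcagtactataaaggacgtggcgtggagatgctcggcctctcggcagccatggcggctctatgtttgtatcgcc

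The Rab17 site, at the start of a transcript for an epithelial Rab GTPase, was the highest of the 25 with 21.3 normalised HDAC3 tags and 4.93-fold over input, and it held an ETS match. The site at Cln3, a lysosomal membrane protein gene, had 20.3 normalised tags and was 28.1-fold over input. Its covered part held 1 ETS match and 2 E-box matches, and the nearest KLF4 peak was 14280 bp away. Creb5, a gene of the CREB and ATF family of leucine zipper factors, had 16.0 normalised tags at an internal start 50630 bp from any KLF4 peak, with 1 AP-1 match. The Egfros start lies inside Egfr, the gene of the epidermal growth factor receptor. Its site had 15.1 normalised tags, 2 AP-1 matches and a KLF4 peak centred 221 bp away. Bmf, a proapoptotic BH3-only gene, had 13.4 normalised tags and a C/EBP match, and the small nucleolar RNA host gene Snhg7 had 16.9 with no match to these 4 motifs.

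Over whole 300-base windows, with 1 window taken for each of the 25 genes, AP-1 matches were present in 5 (20%, 95% exact interval 6.83 to 40.7), against 7.81% of all 32851 windows. The C/EBP motif was present in 7 of 25 (28%, 12.1 to 49.4), against 10.8% of all windows, and the ETS motif in 5 (20%), against 8.86%. The STAT motif TTCNNNGAA was present in 6 (24%), against 8.30%. Others were below the share of all windows, with CCAAT in 5 (20%), against 37.4%, the p63 half-site core CATG in 12 (48%), against 61.1%, and the NF-kB motif in 4 (16%), against 20.7%. The motif CACCC, part of the sites of KLF and SP factors, was found in 16 of 25 (64%, 42.5 to 82.0), against 57.5% of all windows. These counts are small, they cover 25 of the 752 peaks, and 14 motifs were searched, so they are given as a description. A match can lie outside the part that the HDAC3 peak covered, which was as short as 19 bases at Snhg16. The 25 starts were internal or lncRNA starts, while all windows were not limited to these. The cyclic AMP response element TGACGTCA and the GATA motif AGATAAG were in 0 of 25 windows, against 1.79% and 3.04% of all windows.

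The heights that chose the peaks were concentrated just above the limit. HDAC3 height had a median of 14.3 normalised tags over the 752 peaks (quartiles 12.9 and 16.7, maximum 49.8), and 430 peaks (57.2%) lay between 12 and 15. Only 76 reached 20, and 10 reached 30. A height of 12 corresponds to 68 tags in this library of 56787485 tags, and counting error alone puts it between 9.30 and 15.2 (95% exact Poisson interval). By that measure 466 of the 752 peaks lay within counting error of the limit, as did 942 weaker distal peaks without KLF4, chosen alike but under 12. Just inside were peaks in Tmco4, Bcl11b and Cdc42bpg and peaks outside Pafah2 and Gypc, all at 12. Just outside were peaks in or nearest to Camk1d, Aig1, Vamp2, Alpk2 and Mbp, all at 11.8.

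Enrichment over input was moderate for most of the peaks. The fold over input, a value of the authors' caller like the height, had a median of 6.71 (quartiles 5.31 and 9.49), and 158 peaks (21.0%) stood under 5-fold with the calling limit at 4. The 4495 strong distal peaks with a KLF4 peak had a median height of 16.0 normalised tags and a median fold of 8.61. Input tags per peak had a median of 6 and a mean of 6.19 without KLF4, against a median of 6 and a mean of 5.79 with KLF4. The highest folds belonged to the peak nearest to the plectin gene Plec (110.6-fold, height 19.9) and to peaks inside Slc3a2, an amino acid transporter subunit gene (108.6-fold, 19.5), and Zbtb7c (94.9-fold, 16.9). In each of these 3 the caller wrote an input of 0 as 0.5 tags, so the fold is set by that convention. The lowest folds, of 4.0 to 4.02, were at a peak nearest to Tpd52 and at peaks inside Azin2 and Itgb5, with 9 to 11 input tags.

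**Figure D1:**
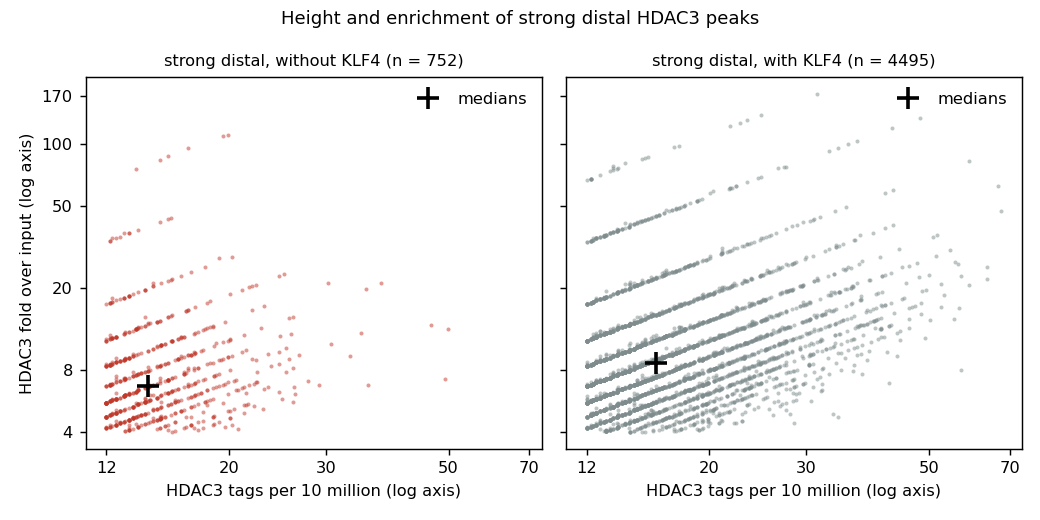
Each point is 1 HDAC3 peak, with its height in normalised tags on the x axis and its fold over input on the y axis, both on log scales; the 752 strong distal peaks without KLF4 are on the left, the 4495 with KLF4 on the right, and the cross marks the medians. The peaks without KLF4 crowd towards the limit of 12, with medians of 14.3 and 6.71-fold, against 16.0 and 8.61-fold with KLF4; the stripes come from whole input tag numbers.

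The share of strong distal HDAC3 peaks that lacked KLF4 was smaller at greater heights. It was 19.9% between 12 and 15 normalised tags (430 of 2166), 13.7% between 15 and 20 (246 of 1795), 6.65% between 20 and 30 (66 of 993) and 3.41% at 30 or more (10 of 293). Over all of them it was 14.3% (752 of 5247), and at gene ends it was 16.9% (126 of 744). Height and KLF4 overlap both entered the rule, so no test is given.

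Although the rule excluded overlapping KLF4 peaks, KLF4 was seldom far away. The nearest KLF4 peak centre lay at most 370 bp away for 87 of the 752 peaks (11.6%) and beyond that up to 1000 bp away for another 120 (16.0%). For 417 (55.5%) it lay over 1 and up to 10 kb away, for 115 (15.3%) over 10 and up to 50 kb, and for 13 (1.73%) beyond 50 kb. The name of the set therefore holds at the scale of a peak, not of a locus. The flanking KLF4 peaks within 1000 bp were of ordinary to high KLF4 height, with a median of 23.0 normalised tags (quartiles 16.1 and 35.4), against a median of 10.4 over the whole KLF4 list and 28.2 for KLF4 peaks that overlapped a strong distal HDAC3 peak. A KLF4 signal too low to be called does not appear in a peak list, so absence of a peak is not absence of KLF4.

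KLF4 peaks between 1 and 10 kb away, a range the rule did not use, accompanied 76.9% of the 752 peaks (95% exact interval 73.7 to 79.8; 578 of 752). For strong distal peaks with KLF4 the share was 74.9% (3366 of 4495), and the difference did not pass the test (odds ratio 1.11, 0.928 to 1.34; two-sided Fisher's exact test with Benjamini-Hochberg adjustment over 8 position tests, adjusted p = 0.34). Weaker distal HDAC3 peaks without KLF4 had such a neighbour in 33.0% (13128 of 39820), and here the odds ratio was 6.75 (5.69 to 8.01; Fisher's exact test, adjusted p = 1.5e-130). In their KLF4 neighbourhood the strong peaks without KLF4 were thus far above the weaker ones, and their difference from peaks with KLF4 lay between 0.928 and 1.34 as an odds ratio. With 1 peak kept per run of peaks within 50 kb, the comparison with KLF4-carrying peaks passed (odds ratio 1.36, adjusted p = 0.0035, Fisher's exact test). Runs were thinned within each group, which left 658 of the 752 peaks (75.8% with such a neighbour). It left 2728 of the 4495 peaks with KLF4 (69.8%), and the part of this unequal thinning was not tested.

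**Figure D2:**
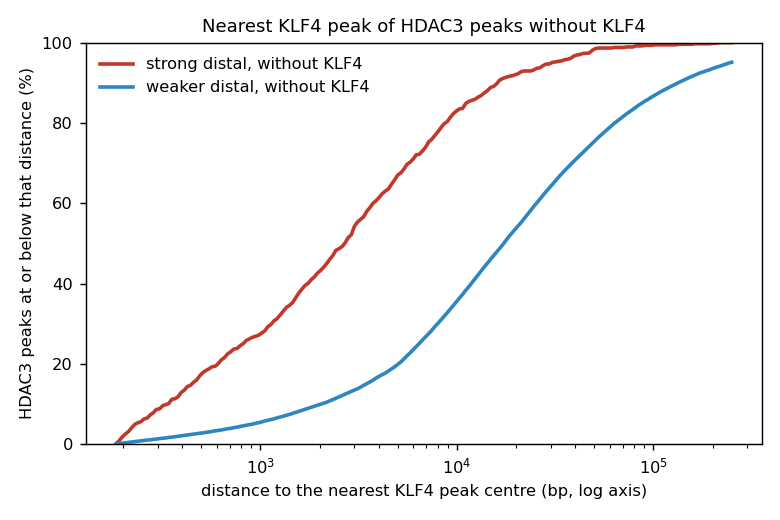
The curves give the cumulative share of HDAC3 peaks (y axis, %) whose nearest KLF4 peak centre lies at or below a distance (x axis, bp, log scale), for the 752 strong distal peaks without KLF4 and the 39820 weaker distal peaks without KLF4. At 1000 bp the strong peaks reach 27.5%, and the weaker peaks 5.45%.

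Other HDAC3 peaks were also close. A second HDAC3 peak centre lay within 10 kb for 528 of the 752 peaks (70.2%, 66.8 to 73.5), against 65.4% of strong distal peaks with KLF4 (2938 of 4495; odds ratio 1.25, 1.06 to 1.48; Fisher's exact test, adjusted p = 0.020) and 45.1% of weaker distal peaks without KLF4 (17970 of 39820; odds ratio 2.87, 2.45 to 3.36; adjusted p = 2.5e-42). The first of these differences was lost when KLF4 had to be absent from 1000 bp (odds ratio 1.1, Fisher's exact test, adjusted p = 0.73). At heights of 20 or more its direction turned (0.831). This difference was larger at 8-fold over input or more (1.74), with 1 peak per run (1.52) and at heights from 12 to under 20 (1.32). With 1 peak per run, thinning within each group took the set from 752 to 658 peaks and the compared peaks from 4495 to 2728. The caller's limit of 4-fold over the local 10 kb acts on neighbouring HDAC3 peaks, and its part in both differences was not tested. A strong distal HDAC3 peak with KLF4 lay within 10 kb of 259 of the 752 (34.4%) and within 50 kb of 459 (61.0%). Most of the peaks without KLF4 thus had a strong distal HDAC3 site with KLF4 within 50 kb, but not within 10 kb. No such share is given here for other peaks.

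Shares inside gene bodies did not pass the test against either comparison. Of the 752, 355 (47.2%, 43.6 to 50.9) lay inside a protein-coding gene, against 48.4% of strong distal peaks with KLF4 (2175 of 4495; odds ratio 0.954, 0.817 to 1.11; Fisher's exact test, adjusted p = 0.55) and 49.7% of weaker distal peaks without KLF4 (19792 of 39820; odds ratio 0.905, 0.783 to 1.05; adjusted p = 0.30). Another 136 lay outside but within 10 kb of a protein-coding gene, 158 between 10 and 50 kb, and 103 (13.7%) beyond 50 kb. Chromosome 11 held the most, 76 of 752 (10.1%), against 9.34% of strong distal peaks with KLF4. Chromosome X held 0 of 752, which allows a share of up to 0.399% (3 counts of the total), against 0.267% of strong distal peaks with KLF4 (12 of 4495) and 1.48% of weaker ones without KLF4 (590 of 39820).

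Ends of noncoding genes, which the rule ignored, lay within 1 kb of 54 of the 752 peaks (7.18%, 5.44 to 9.27). In 44 of these the noncoding gene was a lncRNA. The share was 6.58% in strong distal peaks with KLF4 (296 of 4495; odds ratio 1.1, 0.812 to 1.48; Fisher's exact test, adjusted p = 0.55) and 4.41% in weaker distal peaks without KLF4 (1757 of 39820; odds ratio 1.68, 1.26 to 2.22; adjusted p = 0.0018). The second difference did not pass when KLF4 had to be absent from 500 or 1000 bp (Fisher's exact test, adjusted p = 0.059 and 0.052) or at heights of 20 or more (adjusted p = 0.78, 76 peaks).

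**Figure D3:**
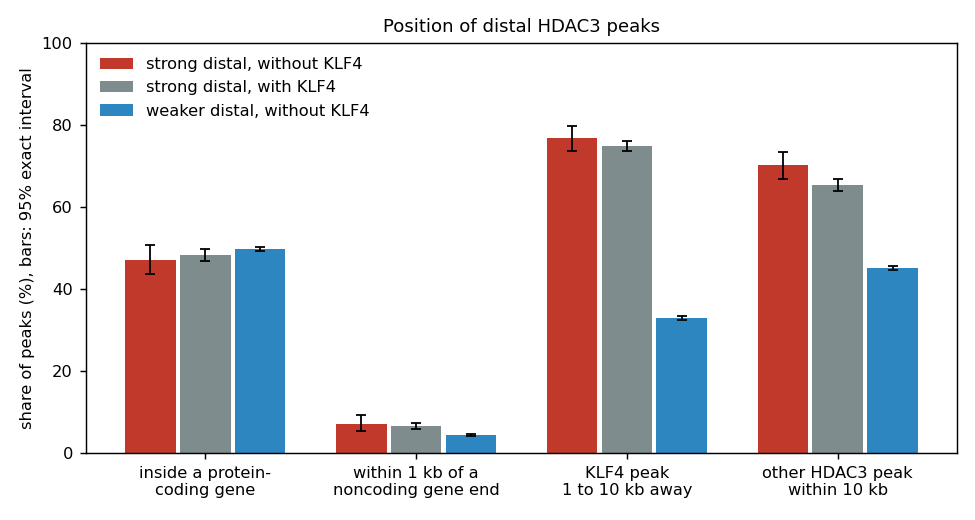
Bars give the share of peaks (y axis, %) with each of 4 position features for strong distal HDAC3 peaks without KLF4 (n = 752), strong distal peaks with KLF4 (n = 4495) and weaker distal peaks without KLF4 (n = 39820), with 95% exact intervals. Inside protein-coding genes the shares are 47.2%, 48.4% and 49.7%, and for a KLF4 peak 1 to 10 kb away they are 76.9%, 74.9% and 33.0%.

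The highest peak of the set was at an end of Neat1, the lncRNA that scaffolds nuclear paraspeckles. It lay at chr19:5845292-5845476, 96 bp from an end of Neat1 and 5590 bp outside Frmd8, with 49.8 normalised HDAC3 tags, 11 input tags and 12.7-fold enrichment over input. A KLF4 peak of 64.1 normalised tags was centred 209 bp away. A second peak of the set, with 22.5 normalised tags, formed a pair with it that spanned 29464 bp. Other peaks at lncRNA ends were those at B930059L03Rik (29.1 normalised tags), at Gm32130 near Ets2 (26.8), at Gm36665 near Fosl2 (23.2) and at 2900052L18Rik (19.9). Further ones, of 17.6 to 19.9 normalised tags, were at Gm46302, Gm40916, Gm51822, Gm40704, 4732471J01Rik, Gm30968 and 4930578M01Rik. An end here is either boundary of a gene, so it can be the start. The peaks at 2900052L18Rik and 4930578M01Rik overlapped transcript start windows of those genes. Not every gene had such a window, so other peaks named here, that at Neat1 included, can also lie at a start.

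Genes of the AP-1 complex and of the immediate early response, which switch on within minutes of growth factor or stress signals, recurred among the highest peaks. The peak nearest to Fos, 18731 bp outside the gene at chr12:85455067-85455251, had 46.5 normalised HDAC3 tags, 10 input tags and a 13.3-fold enrichment, with a KLF4 peak of 43.8 normalised tags 2725 bp away. The peak nearest to Fosb, 11519 bp outside the gene, had 37.7 normalised tags, 5 input tags and a 21.1-fold enrichment, and its nearest KLF4 peak of 74.2 was 1015 bp away. Zfp36 encodes tristetraprolin, which speeds the decay of cytokine mRNAs, and its peak 3000 bp outside the gene had 34.7 normalised tags, at 12.1-fold over input and 3663 bp from KLF4. Fosl2, another AP-1 gene, had 23.2 normalised tags 14402 bp outside the gene, and Ier3, an early response gene of cell survival, had 23.1, with KLF4 peaks centred 368 bp from the first and 416 bp from the second.

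In total 11 of the 25 genes on the AP-1 and immediate early list (44.0%) were the nearest protein-coding gene of at least 1 of the 752 peaks, against 2.92% of all 21887 protein-coding genes. The others were Jun, Atf3, the phosphatase genes Dusp1, Dusp4 and Dusp5, which dampen MAP kinases, and the antiproliferative gene Btg2, with heights of 12.5 to 16.4. The Jun peak lay 126457 bp and the Dusp4 peak 201395 bp outside the gene. Within 50 kb of the gene the count was 9 of 25, against 2.58% of all genes. The list held 13 peaks, or 2.93 per Mb of sequence nearest to its genes, against 0.276 per Mb over the genome. All 14 gene lists described lay above the 2.92% of all genes, so a share above it is not particular to a list. The immediate early list also held 50 strong distal peaks with KLF4, nearest to 18 of its genes, against 12.6% of all genes. With KLF4 absent from 1000 bp the list count was 7 of 25, against 2.19% of all genes, and at heights of 15 or more it was also 7, against 1.34%. At heights of 20 or more it was 5 of 25, against 0.338%, and at 8-fold over input or more it was 5, against 1.17%.

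Transcription factor genes of the epidermis showed a similar count, 14 of 31 (45.2%). Grhl3, a grainyhead factor of barrier formation, led them with 26.1 normalised HDAC3 tags 2000 bp outside the gene, 4781 bp from KLF4. It was followed by the homeodomain gene Hopx (20.1, 40653 bp outside), by Gata3 (18.7, 236316 bp outside) and by the AP-2 gene Tfap2a (17.6, inside the gene). All 3 grainyhead genes on the list, Grhl1, Grhl2 and Grhl3, were nearest to a peak, as were Trp63, the master gene of stratified epithelium (15.3), Klf3 (15.7), Dlx3 (15.5), Sox9 (15.8), Tfap2c (15.8), Maf (15) and Cebpa (14.1). Klf4 itself was the nearest gene of 4 peaks of 12.2 to 14.8 normalised tags, of which 1 lay 4739 bp outside the gene and the farthest 589399 bp outside. The list covered 23 peaks at 2.21 per Mb. It also held 85 strong distal peaks with KLF4, nearest to 26 of its 31 genes, against 12.6% of all genes. With KLF4 absent from 1000 bp the count was 9 of 31, against 2.19% of all genes. Within 50 kb of the gene it was 10, against 2.58% of all genes, at heights of 20 or more it was 2, against 0.338%, and at 8-fold over input or more it was 6, against 1.17%.

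Of the 22 genes for the HDAC3 corepressor complex and for nuclear receptors, which recruit it, 4 (18.2%) were nearest to a peak. All 4 encode receptors, and of all protein-coding genes 2.92% were nearest to a peak. Strong distal peaks with KLF4 were nearest to 11 of the 22, against 12.6% of all genes. The retinoic acid receptor gene Rara had 25.4 normalised tags 1515 bp outside the gene, and the glucocorticoid receptor gene Nr3c1 had 22.9. Vdr, for the vitamin D receptor, had 15 inside the gene, and Thra, for a thyroid hormone receptor, had 14.6.

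**Figure D4:**
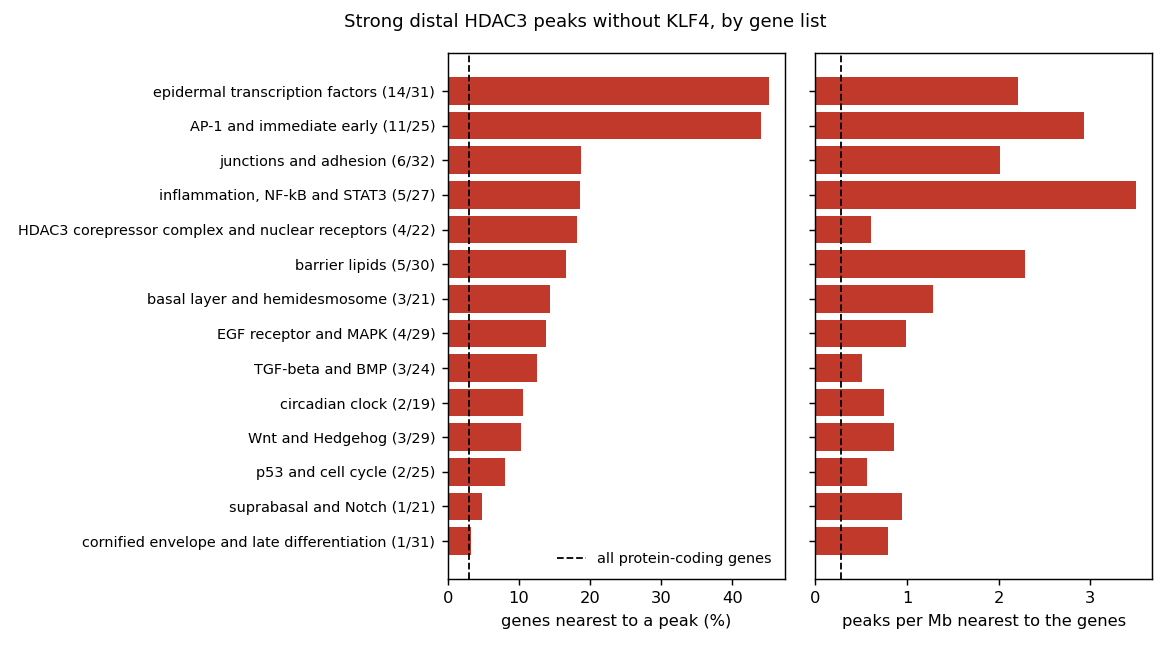
For each of 14 gene lists, the left bars give the percentage of genes that are nearest to a strong distal HDAC3 peak without KLF4 (counts in parentheses) and the right bars the number of such peaks per Mb of sequence nearest to the genes. Dashed lines mark all protein-coding genes, at 2.92% and 0.276 per Mb; transcription factors and immediate early genes reach 45.2% and 44.0%, and the cornified envelope list 3.23%.

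Smallest among the lists were the shares of cornified envelope genes and of suprabasal keratin and Notch genes. That reading depended on the KLF4 distance, and barrier lipid genes had a larger share (16.7%). Of 31 cornified envelope and late differentiation genes 1 (3.23%) was nearest to a peak, close to the 2.92% of all genes; it was Krtdap, with 14.1 normalised tags 4113 bp outside the gene. In the same list 13 genes were nearest to a strong distal HDAC3 peak with KLF4. Of 21 suprabasal keratin and Notch pathway genes 1 (4.76%) was nearest to a peak of the set, namely the suprabasal keratin gene Krt10, with 2 peaks of 19 and 14.1 normalised tags inside the gene as RefSeq draws it, with a predicted transcript included. Here 12 genes were nearest to a strong distal peak with KLF4. When only KLF4 centres within 92 bp counted as overlapping, the counts were 4 of 31 and 4 of 21, against 3.8% of all genes. These genes lie in dense clusters, and the cornified envelope list had only 1.26 Mb of sequence nearest to it, so its single peak gives 0.794 per Mb, against 0.276 over the genome.

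By share of genes, other lists lay in between, while in peaks per Mb inflammation genes (3.50) stood above the immediate early list (2.93) and barrier lipid genes (2.29) above the transcription factors (2.21). Barrier lipid genes were nearest to a peak in 5 of 30 cases (16.7%), led by Cyp4f39, which makes an omega-hydroxylated precursor of acylceramides, with 30.3 normalised tags inside the gene, and by the glucosylceramide synthase gene Ugcg (18.8), whose peak had a KLF4 peak of 90.7 centred 206 bp away. Junction and adhesion genes reached 6 of 32 (18.8%) with 11 peaks. Nectin1 had 26.1 normalised tags 62526 bp outside the gene, the E-cadherin gene Cdh1 had 21.3 inside it, and Perp, a p63 target of desmosomes, and Nectin4 had 3 peaks each. Inflammation, NF-kB and STAT3 genes reached 5 of 27. They included the chemokine gene Ccl20 (19.9) and Socs3, a feedback inhibitor of STAT3, with 3 peaks of 13.6 to 17.4. Basal layer and hemidesmosome genes reached 3 of 21, Cdh3 for P-cadherin (22.4), Plec (19.9) and the integrin gene Itga6 (12.5). Of all protein-coding genes 2.92% were nearest to a peak of the set. Strong distal peaks with KLF4 were nearest to 19 barrier lipid, 18 junction, 8 inflammation and 10 basal layer genes, against 12.6% of all genes.

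Signalling, clock and cell cycle lists had shares of 8% to 13.8% of their genes, against 2.92% of all genes, and 0.507 to 0.982 peaks per Mb, against 0.276. EGF receptor and MAPK genes reached 4 of 29, with Sos2, a guanine nucleotide exchange factor of Ras, at 49.3 normalised tags inside the gene. That Sos2 peak had 19 input tags, the most of the 752, a fold over input of 7.21 and a fold over the local region of 55.9. The other genes of that list were Errfi1, a feedback inhibitor of the receptor (17.4), Egfr (15.1) and Lrig1. TGF-beta and BMP genes reached 3 of 24 (Smad6, Id2 and Id3, 14.8 to 16.4), Wnt and Hedgehog genes 3 of 29 (Fzd10, Lgr6 and Gli2), circadian clock genes 2 of 19 (Hlf and Arntl), and p53 and cell cycle genes 2 of 25 (the cyclin genes Ccnd1 and Ccnd3). Strong distal peaks with KLF4 were nearest to 13 genes of the EGF receptor list and 9 of the TGF-beta list. They were nearest to 9 Wnt and Hedgehog, 9 clock and 7 cell cycle genes, against 12.6% of all genes. In bulk tissue a peak may come from any cell type present, and few cells with much HDAC3 cannot be told apart from many with little. Of the 5 keratinocyte markers Trp63 and Krt10 were nearest to a peak, and of 7 melanocyte, 7 dermal fibroblast and 4 muscle markers none was. The endothelial marker Pecam1 was nearest to 1 peak (12.9), as was Epcam (16.2), which was listed with Langerhans cell and immune markers and is also an epithelial gene.

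The remaining peaks of the 20 highest lay near genes of varied roles. They were nearest to Rnf166 (35.7 normalised tags) and Jmjd4 (35.4), to Irf2bp2, a corepressor gene (33.1, 72580 bp outside), to the kinesin gene Kif21a (30.6), to Ppp2r5c for a subunit of protein phosphatase 2A (29.1), and to Cd2 (27.8). Ets2, an ETS factor gene, had 26.8 and 24.7 at a pair of peaks that spanned 3276 bp. Next came the tetraspanin gene Cd9 (26.4), Cpne5 (26.2), Rhod (26.1), Rptor, the scaffold of mTORC1 (25.9), and Def6 (25.7). The KLF4 peaks nearest to Jmjd4, Irf2bp2, Rhod and Rptor were 215 to 462 bp away, while that of Rnf166 was 12711 bp away.

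Many nearest genes also had an HDAC3 site with KLF4. The 752 peaks had 639 nearest protein-coding genes, and 390 of these (61.0%) were also nearest to a strong distal HDAC3 peak with KLF4. Of all protein-coding genes 12.6% were nearest to such a peak. The same 390 were 14.1% of those 2767 genes, against 2.92% of all protein-coding genes nearest to a peak without KLF4. Most genes, 550, had a single peak of the set, 69 had 2, 16 had 3 and 4 had 4. The genes with 4 were Babam2, Gse1, Actl7b and Klf4, and Actl7b and its neighbour Klf4 on chromosome 4 also had 12 and 11 strong distal peaks with KLF4.

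Grouped by position, the 752 peaks formed 578 single sites, 66 pairs and 14 runs of 3 in which neighbours were at most 50 kb apart. Among the runs of 3, the greatest summed height was at Grhl3 on chromosome 4, where 3 peaks of 13.2 to 26.1 normalised tags spanned 23714 bp together with 2 strong peaks that overlapped KLF4. At Fbln1, a gene of an extracellular matrix protein, 3 peaks of 12.9 to 22.0 spanned 65362 bp. At the heat shock genes Hspa1a and Hspa1b 3 peaks of 12.7 to 21.5 spanned 14205 bp with no strong KLF4-occupied peak among them. The other 3 of the first 6 such runs by summed height were at Actn1, Gm52006 and Zfp36l1 (44451 bp), at Tns4, a focal adhesion gene (12431 bp), and at Slc44a3 and 4930432M17Rik (66178 bp).

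**Figure D5:**
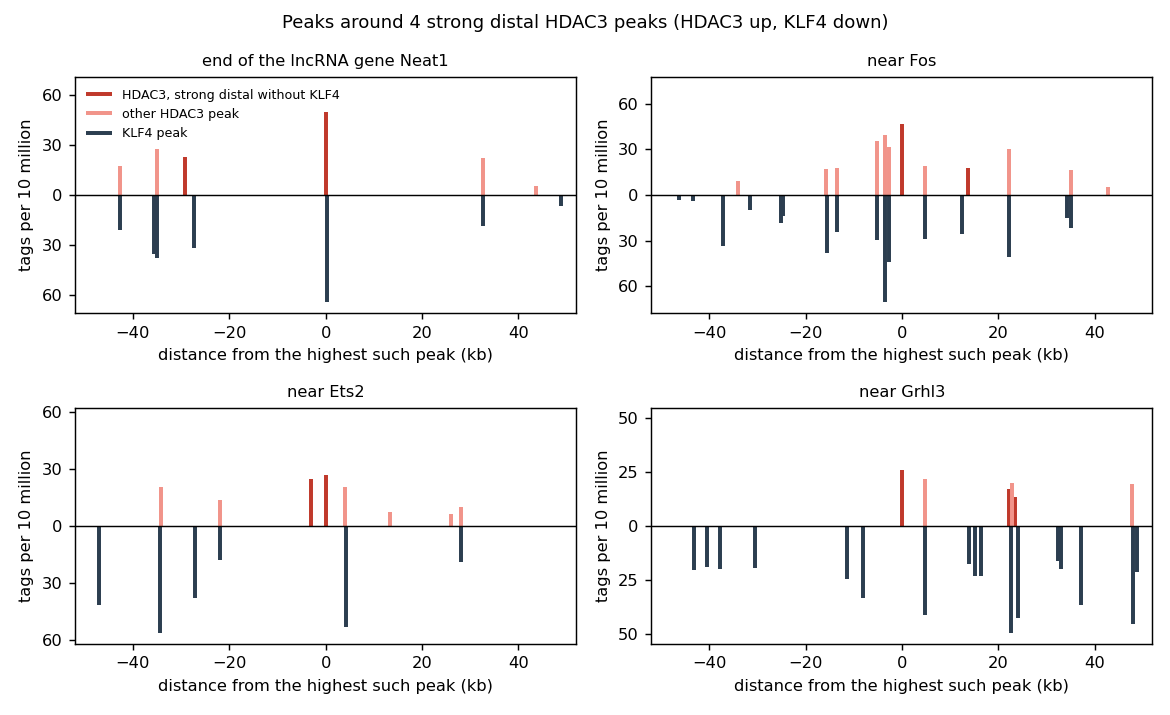
Each panel shows called peaks within 50 kb of a strong distal HDAC3 peak without KLF4, with the distance from it (kb) on the x axis and the height in normalised tags on the y axis, HDAC3 upwards and KLF4 downwards. Around the Fos peak of 46.5 lie 10 other HDAC3 peaks and 16 KLF4 peaks, and around the Grhl3 peak of 26.1 lie 17 KLF4 peaks; at Neat1 the KLF4 peak of 64.1 is 209 bp from the HDAC3 peak and is drawn almost under it.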

How the data were processed

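The tools named in the submitters' processing notes were STAR, bcl2fastq and HOMER, with the build GRCm38.p5; the sources used here give no versions. Per the file headers, HOMER called peaks of 185 bp for each precipitation against the same input, requiring 4-fold enrichment over input and over the local 10 kb and a false discovery rate of 0.001. The height is the tag signal that the authors normalised to 10000000 tags. The deposited lists also give the fold over input and over the local region (ratios), the caller's score, a p-value and the focus ratio (a fraction). The libraries held 56787485 (HDAC3) and 61432711 (KLF4) tags, per the file headers.

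Peaks were placed on 21887 protein-coding and 28056 other genes of RefSeq GRCm38.p6, given with start and end. The nearest gene was the smallest gene holding the centre, or else the gene with the nearest end; sequence per gene was counted in bins of 1 kb. The named peaks are the 20 highest, the 12 highest at noncoding gene ends, the 4 highest per gene list, 6 runs, 6 extremes of fold, 10 peaks at the limit and 3 nearest to KLF4; other genes were named after their values were seen. The set and the lists were chosen with earlier results of these data known, so list counts carry no test; 1 list is not reported here. The shares and counts were recomputed under alternative limits, distances and groupings, of which 17 were planned and not all could be run. Shares were compared with Fisher's exact test (SciPy 1.17.1) over 8 position tests. The search of 14 motifs in all peaks was not run because no genome sequence was used here, and only transcript start windows were searched. Distances, runs and overlaps were tested on simulated data.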

Additional observations from a re-analysis of the deposited data

How the results depend on the processing

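The number of peaks followed the height limit: there were 1334 peaks nearest to 1069 genes at heights of 10 or more, 322 and 293 at 15 or more, 76 and 74 at 20 or more, and 278 and 257 at 8-fold over input or more. Under the other settings the number stayed between 545 and 1013. Against weaker distal peaks without KLF4, the differences in KLF4 and HDAC3 neighbours kept their direction and passed under every setting run. The odds ratio for noncoding gene ends did not pass with KLF4 absent from 500 bp (1.46) or 1000 bp (1.53) or at heights of 20 or more (1.19), and that for gene bodies turned with 1 peak per run (1.11) and with any gene (1.08). Against strong distal peaks with KLF4, the HDAC3 neighbour difference no longer passed with KLF4 absent from 500 bp (1.23) or 1000 bp (1.1), at heights of 10 or more (1.12) or with wider gene ends of 2 kb (1.21) or 5 kb (1.16), and it turned at heights of 20 or more (0.831) and for neighbours within 50 kb (0.818). The same HDAC3 neighbour difference was larger and passed under others, such as 8-fold over input or more (1.74), 1 peak per run (1.52) and heights from 12 to under 20 (1.32). Keeping 1 peak per run thinned each group by itself and left 658 peaks of the set and 2728 with KLF4. The odds ratio for noncoding ends turned at 500 bp (0.930), at 1000 bp (0.956), at 10 or more (0.946) and at 20 or more (0.806). That for gene bodies turned at 1000 bp (1.02) and with any gene (1.02), and that for KLF4 neighbours at 10 or more (0.993) and for 1 to 50 kb (0.991), while with 1 peak per run it passed (1.36). With KLF4 absent from 1000 bp, list counts were 1 of 29 for EGF receptor and MAPK genes (4 under the limits of the report), 2 of 30 for barrier lipids (5), 2 of 22 for corepressor and receptor genes (4), 1 of 19 for clock genes (2) and 0 of 25 for p53 and cell cycle genes (2), against 2.19% of all genes. The causes of these changes were not tested. No paired analysis was possible because each antibody had 1 library. The motif alternative was not run, noncoding ends could not be compared once the ends of all genes were excluded, and depth limits the height of a peak at the limit to between 9.30 and 15.2.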

Other observations

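A few of the 752 peaks stood far from any KLF4 peak or gene. The nearest KLF4 peak was 212544 bp from a peak inside L3mbtl3 (12.2 normalised HDAC3 tags), 195182 bp from a peak nearest to Plcl2 (18) and 159599 bp from a peak nearest to Map2k6 (13.2). The Plcl2 peak had the highest focus ratio of the set, 0.964, and the Sos2 peak the highest fold over the local region, 55.9. Peaks most distant from protein-coding genes were 761078 bp from Rfpl4b and 589399 bp from Klf4. The first of these overlapped the start window of a lncRNA gene, Gm46220, and had a KLF4 peak 214 bp away. At the other extreme, the closest KLF4 centres beyond the limit were 1 peak width away at a peak inside Rbms3 and 187 bp away at peaks nearest to Tulp1 and Epha4, with KLF4 heights of 12.2, 90.8 and 68.4 normalised tags. Efcab1, Anxa2 and Nectin4 each had 3 peaks of the set and 0 strong distal peaks with KLF4, whereas Serp2 had 3 and 8. The Socs3 run of 3 peaks spanned 5789 bp and held 0 KLF4 peaks.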
